A study of Mus musculus with 10 samples.

Results

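The 10 genes described here are 7 matrix metalloproteinases (MMPs), Mmp1a, Mmp2, Mmp3, Mmp10, Mmp12, Mmp13 and Mmp14, and 3 tissue inhibitors of metalloproteinases (TIMPs), Timp1, Timp2 and Timp3. They were taken by gene symbol, with the transcripts of each symbol summed, from a table that holds 52324 named genes. RNA came from subcutaneous tumours grown from 4T1, a mouse mammary carcinoma cell line, and the time on every label is day 14. There were 5 groups of 2 libraries: a negative control, which the design text calls PBS, Free-MK1775, Free-MK1775+NLG919, Lipo-MK1775 and Lipo-MK1775+NLG. The last group was read as given NLG919, the name in the design text. MK1775 inhibits WEE1, a kinase that holds back entry into mitosis, and NLG919 acts on the IDO1 pathway of tryptophan breakdown. The sources used here do not give the doses, the make-up of the free and Lipo forms, or whether 2 libraries of a group are from different mice. The p-values therefore measure only the spread between these libraries, which may be technical.

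MMPs are zinc-dependent enzymes that cut collagens, proteoglycans and other proteins of the extracellular matrix, and most are secreted as inactive precursors. TIMPs bind the active site of MMPs and block it, so the balance of both families bears on matrix turnover, invasion and vessel growth in tumours. Several MMP genes lie side by side in the genome and are known to be switched on through AP-1, a transcription factor made of FOS and JUN proteins. In a whole tumour such RNA can come from carcinoma cells, fibroblasts, macrophages or neutrophils.

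Of the 10 genes, 5 lie in a cluster of 10 MMP genes at chr9:7272514-7699586 (GRCm39, the build of the deposited table), a stretch of 427 kb. Mmp13 (chr9:7272514-7283331) and Mmp12 (chr9:7344381-7369499) come first, then Mmp3 (chr9:7445822-7455975), Mmp1a (chr9:7464141-7476857) and Mmp10 (chr9:7502353-7510241), all on the plus strand. Mmp1b, Mmp8, Mmp27, Mmp20 and Mmp7 are the other cluster genes, of which Mmp20 and Mmp7 were listed at 0 in all 10 libraries. Outside the cluster, Mmp2 is at chr8:93553919-93580048, Mmp14 at chr14:54669069-54682821, Timp1 at chrX:20736405-20741160, Timp2 at chr11:118191895-118246566 on the minus strand and Timp3 at chr10:86136236-86185370. Timp1 lies within Syn1, Timp3 within Syn3, Timp2 overlaps Cep295nl and Mmp12 overlaps Mmp1b. No source used here states the strand setting, and reads from any stretch in the transcripts of both partners may not be told apart. Mmp1a and Mmp1b are related genes, and how reads were split between them was not tested.

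Promoter windows of 300 bases (250 before and 50 after the annotated start) were read from RefSeq on build GRCm38.p6 for 9 of the 10 genes, with no entry for Mmp2. They were searched on both strands for TGANTCA, a form of the AP-1 site that reads the same on either strand, and for TATAAA, a form of the TATA box. The 5 genes of the chromosome 9 cluster held TGANTCA once each, at 35 to 73 bases before the start, and Mmp14, Timp1, Timp2 and Timp3 did not hold it in these windows. The stretches from 8 bases before that motif to the last base before the start are shown for these 5 genes. By the test given below, Mmp1a, Mmp3 and Mmp10 were called lower in Lipo-MK1775 than in the control. Mmp12 and Mmp13, which also hold the motif, were not called there, and Timp2, which does not hold it, was called lower. A link between the motif and these changes was not tested. Capitals mark TGANTCA and TATAAA, and each stretch reads 5′ to 3′ on the plus strand.
Mmp1a, chr9:7464060-7464140: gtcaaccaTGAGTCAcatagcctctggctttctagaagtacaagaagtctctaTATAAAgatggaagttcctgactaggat
Mmp13, chr9:7272471-7272513: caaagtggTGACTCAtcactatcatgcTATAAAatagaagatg
Mmp3, chr9:7445768-7445821: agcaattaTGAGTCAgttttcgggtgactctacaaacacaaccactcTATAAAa
Mmp10, chr9:7502271-7502341: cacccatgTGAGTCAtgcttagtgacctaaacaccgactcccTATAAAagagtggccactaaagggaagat
Mmp12, chr9:7347322-7347373: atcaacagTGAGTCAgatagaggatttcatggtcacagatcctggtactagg

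Over all 32851 RefSeq windows of this length, 7.81% held TGANTCA and 13.6% held TATAAA. Both motifs together within the 100 bases before the start were found in 0.234% of windows, and Mmp1a, Mmp13, Mmp3 and Mmp10 are among them. So are the cluster genes Mmp1b, Mmp7 and Mmp20, of which Mmp7 and Mmp20 were listed at 0 in all 10 libraries. Mmp12 has a second annotated start whose window held no TGANTCA. A match describes these letters only and is not a measured binding site.

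Levels are given as nuclear TPM, the deposited FPKM of a gene divided by the FPKM sum of all transcripts outside the mitochondrial genome and scaled as TPM is, so values are per transcript length. Read depth is unknown, since the table holds FPKM and no counts. Mitochondrial transcripts made up 47.3% to 64.1% of summed FPKM in 3 libraries (both of Lipo-MK1775 and Free-MK1775+NLG919 replicate 2) and 2.88% to 4.82% in the other 7. Those 3 libraries also had fewer genes at a nuclear TPM of at least 1 (12233 to 12706 against 13565 to 14337). The level of the ribosomal RNA gene Rn18s was higher in them (10374 to 17973 against 1645 to 4727). Lipo-MK1775 and a high mitochondrial share cannot be told apart. Fewer cells of a type and less RNA per cell also cannot be told apart in bulk tissue. The labels name the cell type as cancer cell, but macrophage markers summed to 2922 to 7050 and epithelial markers to 953 to 1932 nuclear TPM, so RNA of other cells was present in every library.

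The collagenase Mmp1a, which cuts fibrillar collagen, showed the widest spread of the 10 genes. It stood at 4.11 and 10.5 nuclear TPM in the control and at 7.96 and 11.3 in Free-MK1775. It stood at 0.468 and 0.268 in Free-MK1775+NLG919, at 0.361 and 0.750 in Lipo-MK1775, and at 2.03 and 1.80 in Lipo-MK1775+NLG. The levels thus formed 3 tiers that did not overlap: control with Free-MK1775 on top, Lipo-MK1775+NLG between, and Lipo-MK1775 with Free-MK1775+NLG919 at the bottom. Its highest library was 42.1-fold above its lowest, Free-MK1775+NLG919 replicate 2, which is of high mitochondrial share. The bottom tier is near the floor, at a deposited FPKM of 0.172 and 0.083 in Free-MK1775+NLG919 and 0.073 and 0.200 in Lipo-MK1775. The size of that fold is therefore uncertain.

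The collagenase Mmp13, a gene of bone and of invading tumours, was at 129 and 141 nuclear TPM in the control and at 104 and 165 in Free-MK1775. Free-MK1775+NLG919 had 92.1 and 35.6, Lipo-MK1775 65.8 and 64.2, and Lipo-MK1775+NLG 139.7 and 247. Both Lipo-MK1775 libraries and both Free-MK1775+NLG919 libraries lay below all others, and the 2 Free-MK1775+NLG919 libraries stood on either side of the Lipo-MK1775 pair.

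The stromelysins degrade proteoglycans, laminin and fibronectin and can activate other MMP precursors. Mmp3 (stromelysin 1) was at 225 and 389 nuclear TPM in the control, 325 and 427 in Free-MK1775, 162 and 119 in Free-MK1775+NLG919, 63.3 and 126 in Lipo-MK1775, and 339 and 366 in Lipo-MK1775+NLG. Mmp10 (stromelysin 2) was at 52.3 and 97.6 in the control, 51.0 and 57.2 in Free-MK1775, 17.0 and 13.1 in Free-MK1775+NLG919, 12.1 and 16.6 in Lipo-MK1775, and 47.4 and 42.3 in Lipo-MK1775+NLG. For both genes, all 4 libraries of Lipo-MK1775 and Free-MK1775+NLG919 lay below all 6 others, and these 2 groups overlapped each other.

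The macrophage elastase Mmp12 had another order. It was at 120.4 and 148 nuclear TPM in the control and at 139.2 and 153 in Lipo-MK1775, which overlapped. Free-MK1775 had 56.7 and 78.3, Free-MK1775+NLG919 61.2 and 53.2, and Lipo-MK1775+NLG 78.9 and 69.9. These 6 libraries lay below all 4 of the control and Lipo-MK1775. The lower 6 hold 1 library of high mitochondrial share and the upper 4 hold 2.

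Mmp2, a gelatinase that cuts denatured collagen and collagen of basement membranes, was at 49.6 and 35.7 nuclear TPM in the control and at 35.7 and 54.9 in Free-MK1775. Free-MK1775+NLG919 had 29.96 and 6.42, Lipo-MK1775 14.8 and 41.1, and Lipo-MK1775+NLG 23.7 and 27.6. Only Free-MK1775+NLG919 and Lipo-MK1775+NLG lay below both control libraries, and the pairs of Free-MK1775+NLG919 and Lipo-MK1775 were the widest apart. Mmp14, the membrane-bound MMP that activates pro-MMP2 at the cell surface, moved least when summed over transcripts with its symbol. In that sum 83.4 was the lowest library, 108.5 the median and 146 the highest, and both extremes belonged to Free-MK1775+NLG919. With transcripts assembled without a symbol added, the lowest was Lipo-MK1775 replicate 2 (213) and the highest Free-MK1775+NLG919 replicate 1 (412).

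Among the inhibitors, Timp1, which is secreted and induced in inflammation, stayed between 147 and 272 nuclear TPM, with overlap between every treated group and the control. Timp2, which inhibits MMPs and also takes part in the activation of pro-MMP2 by MMP14, was at 379.7 and 421 in the control, 427 and 386 in Free-MK1775, and 471 and 414 in Lipo-MK1775+NLG. Both Lipo-MK1775 libraries stood at 149 and 147, and Free-MK1775+NLG919 was split, with 377 in replicate 1 and 173 in replicate 2, the library of high mitochondrial share. Timp3, which is held in the matrix, was at 29.6 and 19.4 in the control, 27.4 and 24.02 in Free-MK1775, 15.9 and 2.76 in Free-MK1775+NLG919, 9.21 and 5.83 in Lipo-MK1775, and 16.0 and 17.6 in Lipo-MK1775+NLG. For Timp2 and Timp3 the 3 libraries of high mitochondrial share were the 3 lowest of all 10.

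**Figure D1:**
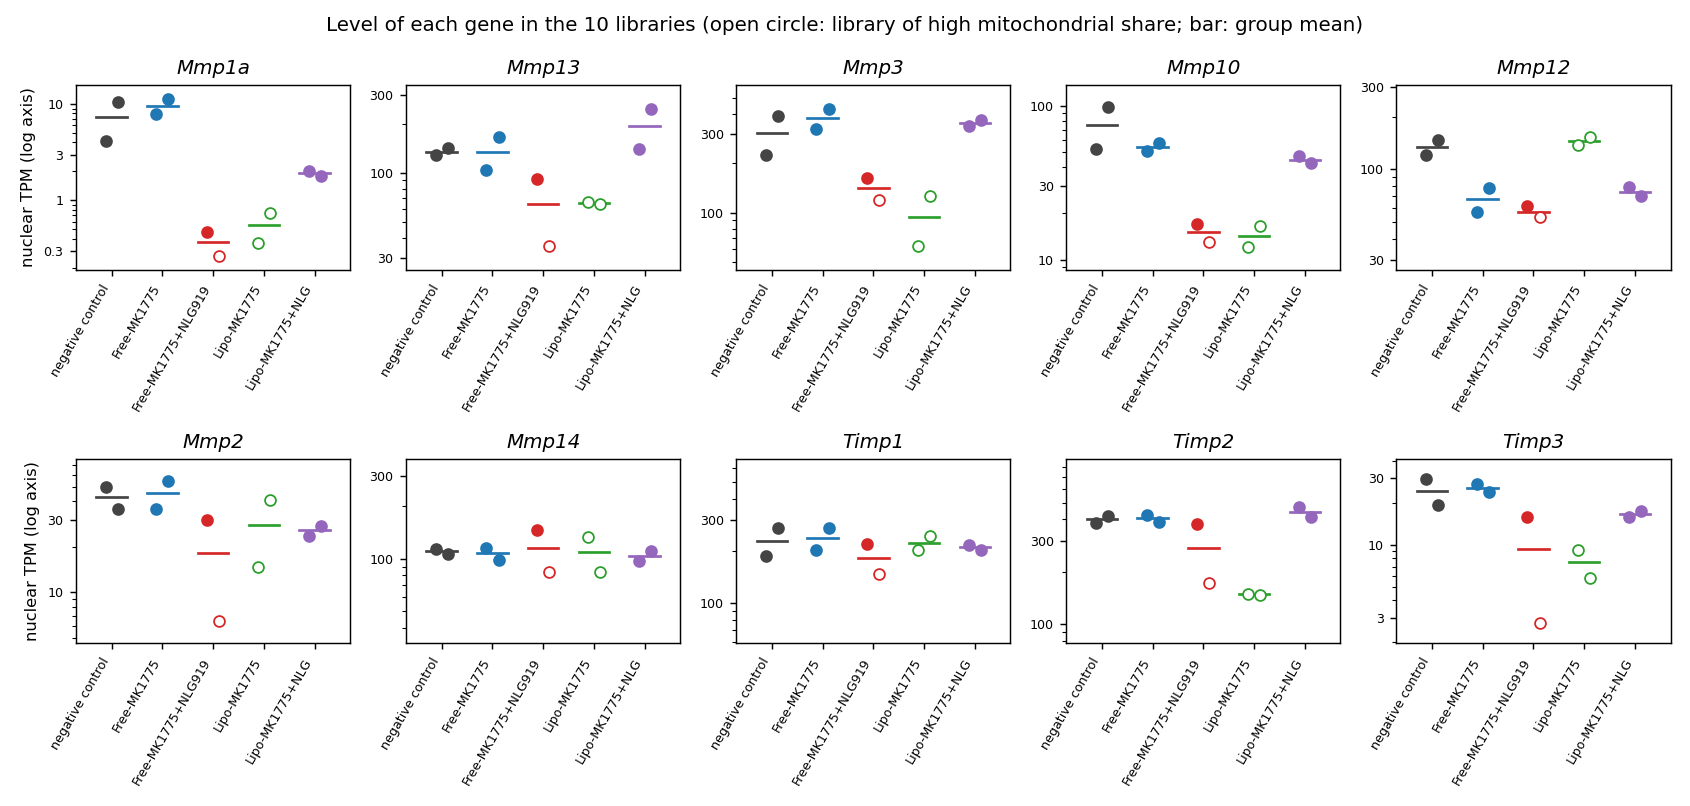
Each panel plots 1 gene, with nuclear TPM on a log axis against the 5 groups. Points are libraries, open points the 3 libraries of high mitochondrial share, and bars group means. Mmp1a, Mmp3 and Mmp10 are low in both libraries of Free-MK1775+NLG919 and of Lipo-MK1775, while Mmp14 and Timp1 overlap between the control and every treated group.

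The summed level of the 7 MMPs was 694 and 929 nuclear TPM in the control and that of the 3 TIMPs 596 and 712, a ratio of 1.16 and 1.31. In Lipo-MK1775 both sums were lower, 429 and 486 for the MMPs and 360.1 and 397 for the TIMPs, and the ratio was 1.19 and 1.22. Free-MK1775+NLG919 had the 2 lowest ratios, 0.833 and 0.965. Free-MK1775 had 1.06 and 1.31, and Lipo-MK1775+NLG 1.03 and 1.36. The ratios of Free-MK1775, Lipo-MK1775 and Lipo-MK1775+NLG overlapped those of the control, but they leave out the other MMP genes. Summed over all MMP genes the level was 1070 and 1236 in the control, 953 and 1158 in Free-MK1775 and 582 and 657 in Lipo-MK1775. It was 718 and 456 in Free-MK1775+NLG919 and 1152 and 1297 in Lipo-MK1775+NLG. Set against the same TIMP sums, only Lipo-MK1775+NLG then overlapped the control, and the other treated groups lay below it.

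Changes are differences of log2(nuclear TPM + 1) from a limma fit of all 10 libraries, a scale that understates the change of low genes such as Mmp1a. A gene was called at an adjusted p under 0.05 by limma with Benjamini-Hochberg adjustment over the 15469 genes tested, among which are all 10 described here. The comparisons with the control share its 2 libraries, so their values are not independent of each other.

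The free WEE1 inhibitor alone was compared with the control first. Of the 10 genes 0 were called, and of all genes 0.0129%. Only Mmp12 reached an unadjusted p under 0.05, as did 1.96% of all genes: its mean was 67.5 ± 15.3 nuclear TPM against 134 ± 19.6 in the control (SD, n = 2 each), a log2 change of -0.99 (SE 0.24, limma adjusted p = 1). It was also the 1 gene of the 10 without overlap of the libraries, lower, where 20.2% of all genes were. The other 9 genes had log2 changes between -0.40 (Mmp10, SE 0.34) and 0.45 (Mmp1a, SE 0.45), against a median of all genes of -0.06.

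Free-MK1775+NLG919 against the control showed 9 of 10 genes with a negative estimate and 0 called by limma, where 0.0194% of all genes were called. At an unadjusted p under 0.05 were 6 of 10 genes, against 21.7% of all genes. Mmp10 had a log2 change of -2.18 (SE 0.34, adjusted p = 0.0840) and Mmp1a of -2.49 (SE 0.45, adjusted p = 0.0955). Mmp12 had -1.21, Mmp13 -1.22, Mmp3 -1.09 and Timp3 -1.65, against a median of all genes of -0.44. In 8 of 10 genes both libraries lay below both control libraries, as in 40.7% of all genes. The exceptions were Mmp14 and Timp1.

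The 2 Free-MK1775+NLG919 libraries differ in mitochondrial share, 2.88% in replicate 1 and 47.3% in replicate 2. Replicate 1 alone lay below both control libraries in 8 of 10 genes, as in 45.9% of all genes, and replicate 2 in 10 of 10, as in 72.5%. Without the 3 libraries of high mitochondrial share the log2 change was -2.01 for Mmp10 (adjusted p = 0.181), -2.39 for Mmp1a (0.227 as the adjusted p) and -1.11 for Mmp12 (0.210). The values for Mmp13, Mmp2 and Timp3 there were -0.54, -0.48 and -0.56, against -1.22, -1.51 and -1.65 with both libraries. Timp2 had -0.64 with both libraries and -0.08 without replicate 2. With replicate 2 as the lone Free-MK1775+NLG919 library the log2 change of Mmp10 was -2.36, and with replicate 1 as the lone library it was -2.01.

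Lipo-MK1775 against the control gave 4 genes called, all lower, where limma called 21.0% of all genes and 19.4% lower. Mmp10 fell by 2.25 on the log2 scale (SE 0.34, adjusted p = 0.0223), from 74.9 ± 32.1 nuclear TPM to 14.4 ± 3.22 (SD, n = 2 each). Mmp1a fell by 2.31 (SE 0.45, adjusted p = 0.0272), from 7.32 ± 4.54 to 0.555 ± 0.275. Mmp3 fell by 1.72 (SE 0.38, adjusted p = 0.0292), from 307 ± 116 to 94.8 ± 44.6. Timp2 fell by 1.43 (SE 0.33, adjusted p = 0.0303), from 400.1 ± 28.9 to 148 ± 1.25. Mmp13 (-1.04, adjusted p = 0.110) and Timp3 (-1.58, adjusted p = 0.0872) were not called although their libraries did not overlap either. That made 6 of 10 genes with both libraries below the control, where 67.2% of all genes were.

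Genes as a whole stood lower in Lipo-MK1775, with a median of -0.78 over all genes tested. Relative to that median, Mmp1a was at -1.54, Mmp10 at -1.48, Mmp3 at -0.94 and Timp2 at -0.65. Mmp14 had -0.06 and Timp1 -0.02, and Mmp12 had 0.13, so these 3 stood 0.72, 0.76 and 0.90 above the median. With median-of-ratios scaling, which sets the typical gene to no change, Mmp1a (-1.83) and Mmp10 (-1.41) were still called lower, Mmp3 (-0.84) and Timp2 (-0.55) were not, and Mmp14 and Timp1 turned positive at 0.82 and 0.86. Under quantile normalization only Timp2 was called (-1.12). The count of 4 fell to 0 without negative control replicate 1, negative control replicate 2, Lipo-MK1775 replicate 1, Lipo-MK1775+NLG replicate 1 or Lipo-MK1775+NLG replicate 2, and to 2 without Lipo-MK1775 replicate 2. With the mitochondrial share as a covariate it was 0. That fit cannot separate the group from the share, since both Lipo-MK1775 libraries are of high share. Its slope rests mostly on the 2 Free-MK1775+NLG919 libraries, so the 0 decides nothing here.

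Lipo-MK1775+NLG against the control gave 0 genes called by limma, where 0.00646% of all genes were called, and 2 genes at an unadjusted p under 0.05, where 2.52% of all genes were. These were Mmp12, with a log2 change of -0.84 (SE 0.24, unadjusted p = 0.00766, adjusted p = 1), and Mmp1a, with -1.40 (SE 0.45, unadjusted p = 0.0125, adjusted p = 1). In 5 of 10 genes (Mmp1a, Mmp10, Mmp12, Mmp2 and Timp3) both libraries lay below both control libraries, as in 23.4% of all genes. Mmp13 had 0.46 and Mmp3 0.25, and the median of all genes was -0.02. All 4 libraries of this comparison have a low mitochondrial share.

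**Figure D2:**
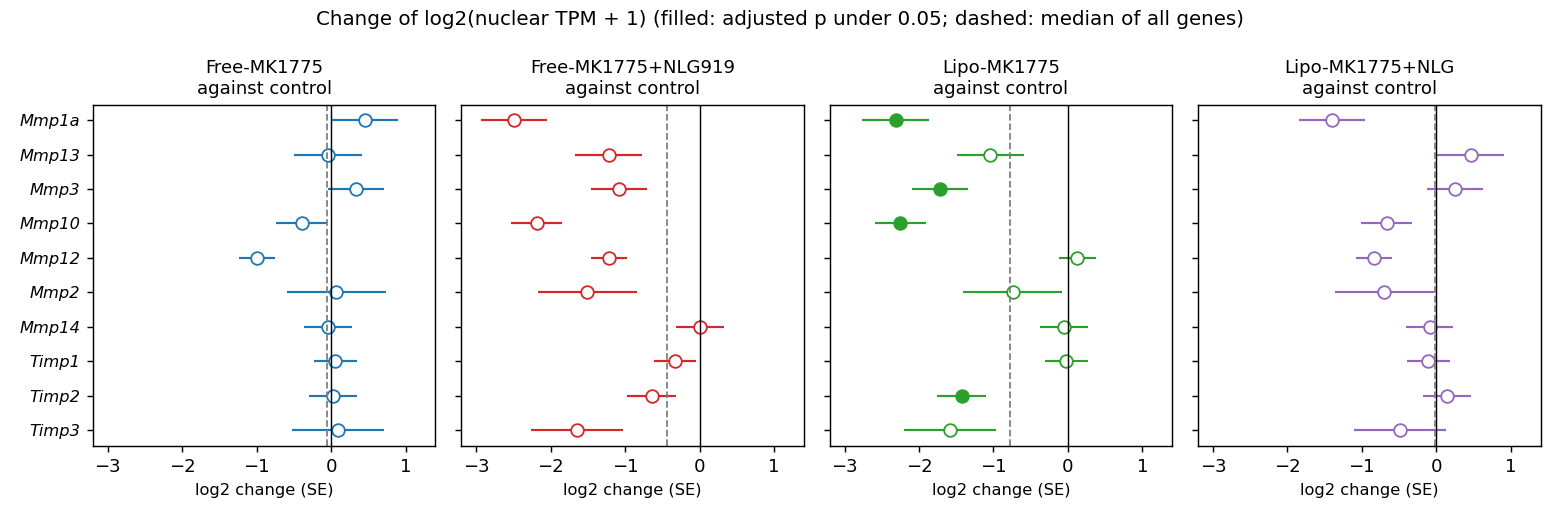
The 4 panels plot the log2 change of each gene against the control, with bars of 1 SE, a solid line at 0 and a dashed line at the median of all genes. Filled points are the 4 genes called in Lipo-MK1775, Mmp1a, Mmp3, Mmp10 and Timp2. Mmp12 is left of 0 in every panel but that of Lipo-MK1775.

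Lipo-MK1775 against Free-MK1775 compares the forms of the WEE1 inhibitor without NLG919. Only the Lipo-MK1775 libraries are of high mitochondrial share here, so form and share cannot be told apart. Here 5 of 10 genes were called by limma, where 3.39% of all genes were. Mmp1a (-2.77, adjusted p = 0.0372), Mmp3 (-2.05, adjusted p = 0.0415), Mmp10 (-1.86, adjusted p = 0.0415) and Timp2 (-1.45, adjusted p = 0.0497) were lower in Lipo-MK1775. Mmp12 was higher by 1.12 (SE 0.24, adjusted p = 0.0481), a 2.17-fold difference against a median of all genes of -0.71, and called higher were 0.478% of all genes. Mmp12 was also the 1 gene called with median-of-ratios scaling (1.93, adjusted p = 0.0209) and with quantile normalization (1.64, adjusted p = 0.0276). With the mitochondrial share as a covariate, a fit with the limit given above, 0 were called by limma, and Mmp12 had 1.42 (adjusted p = 0.212). The count of 5 became 0 without Free-MK1775 replicate 1, Free-MK1775 replicate 2, Lipo-MK1775 replicate 1, Lipo-MK1775+NLG replicate 1 or Lipo-MK1775+NLG replicate 2. It became 1 without negative control replicate 1, negative control replicate 2 or Lipo-MK1775 replicate 2.

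Lipo-MK1775+NLG against Lipo-MK1775 compares the Lipo form with and without the second drug. The mitochondrial share was 64.1% and 56.0% in Lipo-MK1775 and 2.98% and 3.49% in Lipo-MK1775+NLG. The second drug and that share therefore cannot be told apart here. Mmp3 (1.97, adjusted p = 0.0422), Timp2 (1.57, adjusted p = 0.0435) and Mmp10 (1.59, adjusted p = 0.0456) were called higher by limma, 3 of 10 genes, where 5.34% of all genes were called, 4.60% higher, and the median of all genes was 0.75. Mmp12 stood lower by 0.96 and Mmp13 higher by 1.502, with an adjusted p of 0.0521 and 0.0621. With median-of-ratios scaling the 3 were not called (adjusted p = 0.0891 to 0.200) and Mmp12 was (-1.82, adjusted p = 0.0244). The count of 3 was 6 without either Free-MK1775+NLG919 replicate 1 or Free-MK1775+NLG919 replicate 2, and 1 without Lipo-MK1775 replicate 2. It was 0 without any 1 of the other 7 libraries. With the mitochondrial share as a covariate, a fit with the limit given above, the count was also 0. Mmp3 then had 1.17, Mmp10 1.02 and Timp2 0.19.

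Free-MK1775+NLG919 against Free-MK1775 gave 0 genes called by limma, as over all genes, with 6 of the 10 genes and 10.7% of all genes at an unadjusted p under 0.05. Mmp1a had -2.94 (adjusted p = 0.172), Mmp10 -1.79 (adjusted p = 0.285) and Mmp3 -1.42 (adjusted p = 0.432), against a median of all genes of -0.39. Lipo-MK1775+NLG against Free-MK1775+NLG919 also gave 0, where 0.0129% of all genes were called, with 5 of the 10 genes and 12.5% of all genes at an unadjusted p under 0.05. Mmp13 had 1.68, Mmp10 1.52, Mmp3 1.34, Mmp1a 1.09 and Timp2 0.79, each with an adjusted p of 0.326 to 0.373. Without Free-MK1775+NLG919 replicate 1 limma called 7 of the 10 genes in the first of these comparisons and 6 in the second. Without the 3 libraries of high mitochondrial share the values of the second were 1.00 for Mmp13, 1.34 for Mmp10, 1.12 for Mmp3, 0.99 for Mmp1a and 0.23 for Timp2.

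The estimate for adding NLG919 was thus negative for Mmp1a, Mmp13, Mmp3, Mmp10, Timp2 and Timp3 beside the free form and positive beside the Lipo form. The interaction tests that difference, the change with NLG919 in the Lipo form minus that in the free form. By limma 6 of 10 genes were called, where 21.0% of all genes were called and the median of all genes was 1.12. Mmp1a had 3.86 (SE 0.63, adjusted p = 0.0355), Mmp3 3.38 (SE 0.53, adjusted p = 0.0331) and Mmp10 3.38 (SE 0.48, adjusted p = 0.0296). Timp3 had 2.83, Mmp13 2.68 and Timp2 2.24, and relative to the median these 6 stood 1.12 (Timp2) to 2.74 (Mmp1a) higher. Mmp12 had -0.74 and was not called (adjusted p = 0.122). The 3 libraries of high mitochondrial share all lie in the 2 groups that enter this difference with a negative sign, Lipo-MK1775 and Free-MK1775+NLG919. With that share as a covariate 0 genes were called, but the fit cannot separate Lipo-MK1775 from the share here either. With median-of-ratios scaling 0 were called, with adjusted p = 0.0689 for Mmp1a and Mmp10. The count of 6 was 0 without negative control replicate 2, Free-MK1775 replicate 1, Free-MK1775 replicate 2, Lipo-MK1775 replicate 1, Lipo-MK1775+NLG replicate 1 or Lipo-MK1775+NLG replicate 2. It was 1 without negative control replicate 1 and 2 without Lipo-MK1775 replicate 2.

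Profiles over the 10 libraries were compared by the root mean square difference of mean-centred log2 levels, a measure of likeness that is 0 for genes that move in parallel. Among the 10 genes the closest pair was Mmp14 and Timp1 (0.338), the 2 that moved least, followed by Mmp3 and Mmp10 (0.406) and Mmp3 and Timp2 (0.431). Over 9659 named genes, the nearest to Mmp1a was Mmp10 (0.528), then the serotonin receptor gene Htr5b (0.579) and the AP-1 subunit Fosb (0.584). Mmp3 lay closest to Myo5c, Dcaf6 and Nme7 (0.266 to 0.268), and Timp2 to B3glct, Spring1 and Hsd17b12 (0.0981 to 0.104). All 10 libraries share the mitochondrial split, which enters each of these values.

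AP-1 subunits were followed as a list of 7 genes, all tested. In Lipo-MK1775 against the control 4 of 7 were called lower by limma: Fosl1 (-1.89, adjusted p = 0.0219), Jun (-1.93, adjusted p = 0.0251), Fosb (-1.89, adjusted p = 0.0314) and Fos (-1.67, adjusted p = 0.0341). The list had a median of -1.67 there against -0.78 over all genes, of which 19.4% were called lower. In Free-MK1775+NLG919 0 of 7 were called, with a median of -1.24 against -0.44, and in Free-MK1775 and Lipo-MK1775+NLG 0 of 7 as well. Fosl1, which encodes FRA-1, was at 98.9 and 81.8 nuclear TPM in the control, 47.0 and 71.5 in Free-MK1775, 20.9 and 21.8 in Free-MK1775+NLG919, 26.1 and 21.2 in Lipo-MK1775, and 51.4 and 57.1 in Lipo-MK1775+NLG. As for Mmp3 and Mmp10, all 4 libraries of Lipo-MK1775 and Free-MK1775+NLG919 lay below all others, and 3 of these 4 are of high mitochondrial share. The part of AP-1 in the levels of the MMP genes was not tested. With NLG919 added to the Lipo form, 2 of 7 were called higher (Jun 1.45 and Fosl1 1.17), where 4.60% of all genes were, and the list median was 1.05 against 0.75 over all genes. In the interaction 4 of 7 were called, where 21.0% of all genes were, and the list median was 2.34 against 1.12.

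Among 16 other MMP genes, 9 passed the filter on low values. In Lipo-MK1775 against the control 3 of 9 were called lower, where 19.4% of all genes were. These were Mmp1b (-2.48), the neighbour of Mmp12, Mmp11 (-2.23), a stromelysin first found in tumour stroma, and Mmp9 (-1.09), a gelatinase. Mmp9 was at 292 and 230.0 nuclear TPM in the control, 183 and 182 in Free-MK1775, 130.1 and 112 in Free-MK1775+NLG919, 124 and 119 in Lipo-MK1775, and 329 and 348 in Lipo-MK1775+NLG. It was thus highest in Lipo-MK1775+NLG. Neutrophil markers summed to 1391 and 990 nuclear TPM in the control, 811 and 1426 in Free-MK1775, 1029 and 1894 in Free-MK1775+NLG919, 548 and 1966 in Lipo-MK1775, and 2352 and 1854 in Lipo-MK1775+NLG. The part of these cells in the Mmp9 values was not tested. Mmp8, the neutrophil collagenase, Mmp9 and Mmp11 were called higher in Lipo-MK1775+NLG than in Lipo-MK1775 (2.32, 1.47 and 2.34), where 4.60% of all genes were. In the other 3 comparisons with the control 0 of 9 were called.

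**Figure D3:**
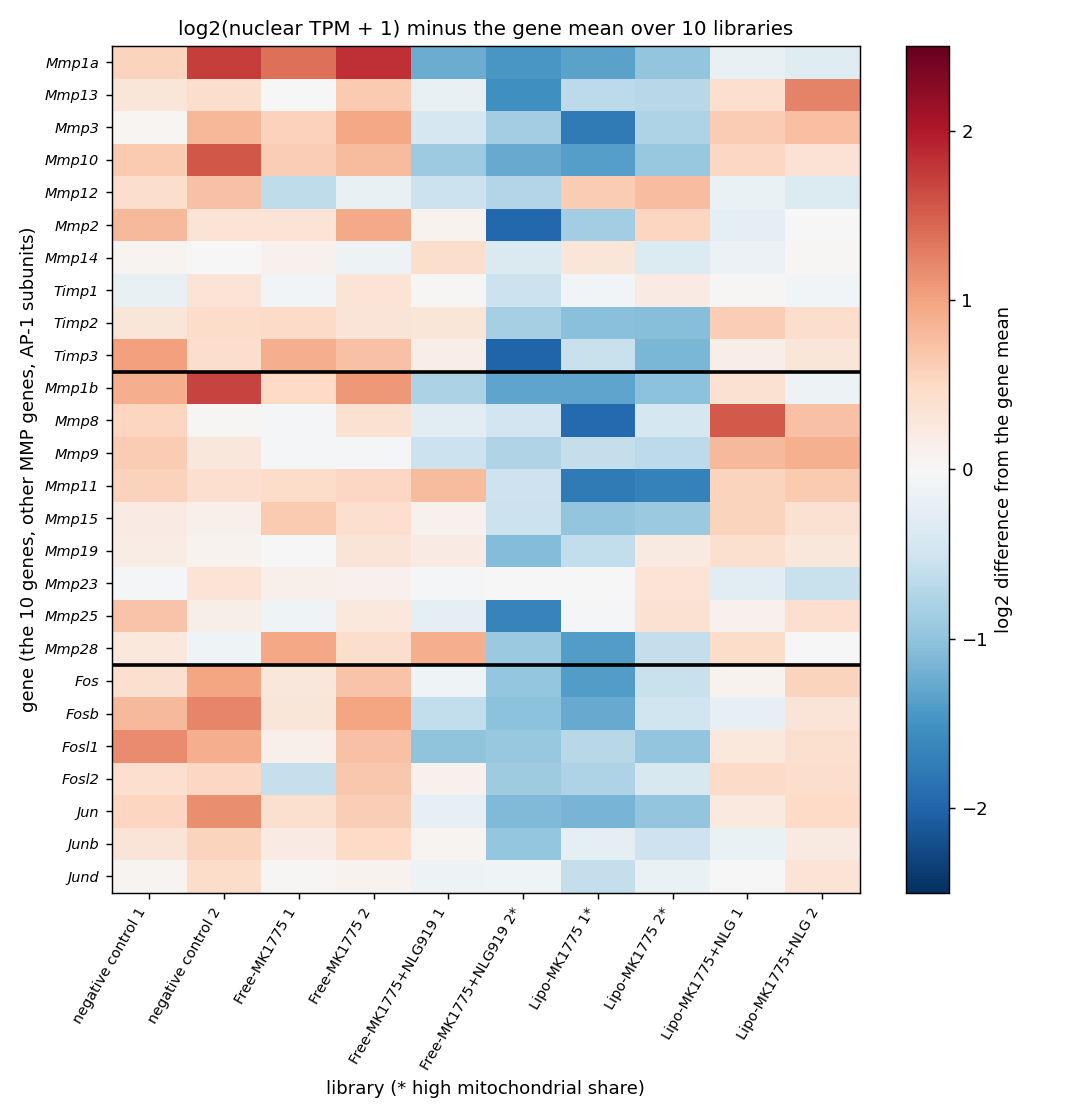
Rows are the 10 genes, the other MMP genes that passed the filter and the AP-1 subunits; columns are the 10 libraries, and colour gives the log2 level minus the mean of that gene. Blue runs through Free-MK1775+NLG919 and Lipo-MK1775 for Mmp1a, Mmp3, Mmp10, Mmp1b, Mmp9 and Fosl1, while Mmp12 is red in the control and in Lipo-MK1775.

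Among other inhibitors, only Reck, a membrane-anchored MMP inhibitor, passed the filter, at 5.62 and 7.23 nuclear TPM in the control and 1.12 and 1.77 in Lipo-MK1775 (-1.61, limma adjusted p = 0.0503). Timp4, A2m and Pzp did not pass. Of 6 tested genes of the plasminogen system, which activates several MMP precursors, 1 was called lower by limma in Lipo-MK1775, where 19.4% of all genes were. It was the urokinase gene Plau (-1.30, adjusted p = 0.0393). Of 6 genes for inducers and activating proteases 0 were called against the control in any group, with a median of -0.72 in Lipo-MK1775. Of 13 tested ADAM and ADAMTS genes 4 were called lower there, beside the same 19.4% of all genes: Adamts1 (-2.36), Adamts9 (-2.18), Adam9 (-1.69) and Adamts4 (-1.63). The 20 matrix genes, the substrates of these enzymes, had a median of -0.80 there against -0.78 over all genes. Of them 5 were called lower, where 19.4% of all genes were. They included the basement membrane genes Col4a2 (-2.33), Col4a1 (-2.26), Lamb1 (-1.48) and Lamc1 (-2.11), and outside the naming rule, chosen after its values were seen, Fn1 (-2.24). In the other 3 groups 0 genes of any of these lists were called against the control.

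Markers of the cell types a tumour can hold were read beside the 10 genes. Endothelial markers were lower in Lipo-MK1775, with 5 of 6 called, where 19.4% of all genes were called lower. They summed to 34.7 and 16.8 nuclear TPM there against 124 and 90.2 in the control, 61.5 and 40.6 in Free-MK1775+NLG919 and 82.7 to 111 in the other groups. Fibroblast markers overlapped between Lipo-MK1775 (92.1 and 173) and the control (121 and 126), and 1 of 8 was called, higher, as were 1.62% of all genes. Macrophage markers summed to 3377 and 3672 in Lipo-MK1775 and 3018 and 4082 in the control, with 0 of 9 called, so Mmp12 and these markers both overlapped there. In Free-MK1775, where Mmp12 was lower, the macrophage markers summed to 5705 and 3851. Epithelial markers had 2 of 8 called lower in Lipo-MK1775, where 19.4% of all genes were. Their part in the results for the 10 genes was not tested.

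Epidermal keratinocyte markers differed within groups: 1132 and 5.46 nuclear TPM in the control, 6.30 and 335 in Free-MK1775 and 6.94 and 942 in Lipo-MK1775+NLG, and between 1.60 and 5.09 in the 4 other libraries. Skeletal muscle markers ranged from 3.57 to 463. Mast cell markers summed to 135 and 85.4 in the control and 7.43 and 14.3 in Free-MK1775+NLG919, with 0 of 4 called. T cell markers summed to 12.5 and 21.5 in the control and had 0 of 5 called in any comparison with it. Of 7 bone and cartilage markers 3 passed the filter and 0 were called against the control, and Sp7 and Acan were listed at 0 in all libraries. The part of these cells in the results was not tested.

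Transcripts with the symbol of a gene were summed, and for 9 of the 10 genes a single transcript held 96.0% or more of that sum. Timp1 was the exception, with ENSMUST00000009530 and ENSMUST00000115342. The share of ENSMUST00000115342 was 37.2% and 22.4% in the control, 26.9% and 24.6% in Free-MK1775, 48.0% and 56.2% in Free-MK1775+NLG919, 65.1% and 23.7% in Lipo-MK1775, and 33.5% and 30.6% in Lipo-MK1775+NLG. Both Free-MK1775+NLG919 libraries lay above the control, while the 2 Lipo-MK1775 libraries were the highest and the second lowest of all 10. At the Mmp14 locus, transcripts assembled by the authors without a symbol held 60.1% to 70.0% of the level. With them added, Mmp14 was at 301 and 307 nuclear TPM in the control and between 213 and 412 in the treated libraries, so every treated group overlapped the control under either sum, except Lipo-MK1775+NLG (323 and 311), which lay above it with them added.

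**Figure D4:**
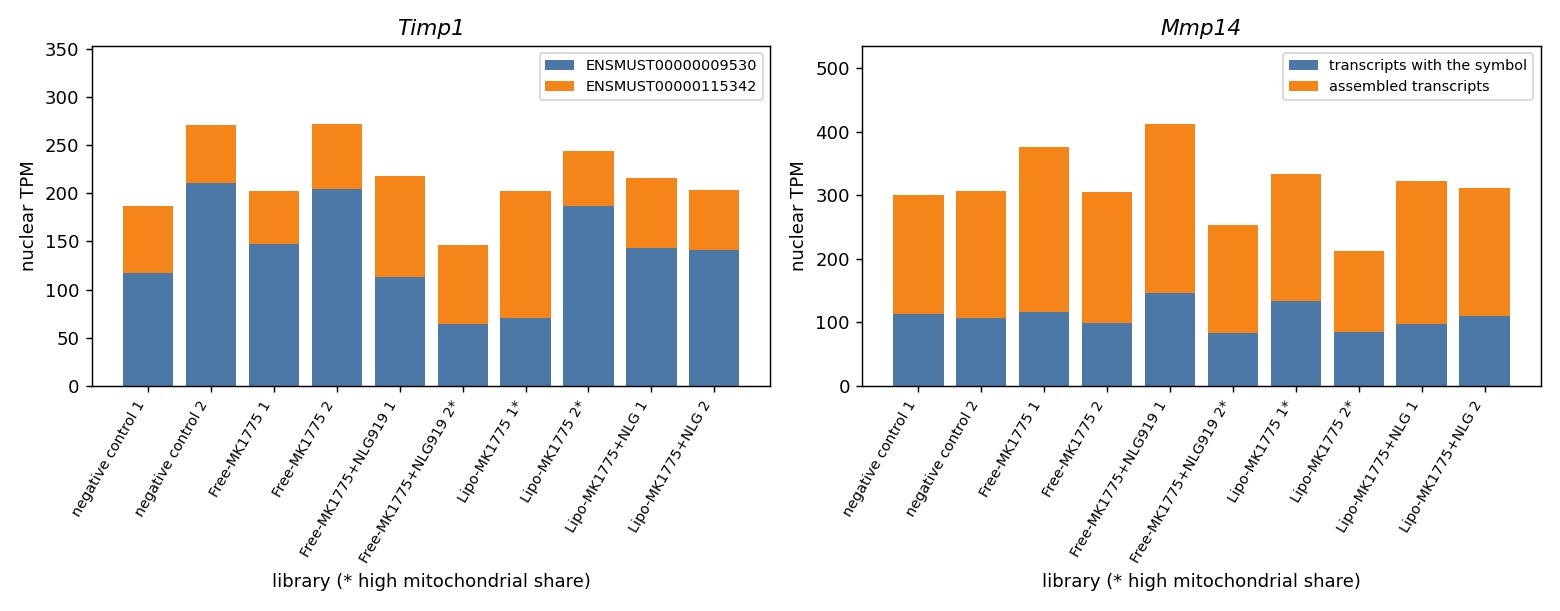
Stacked bars give the nuclear TPM of each library, for Timp1 split into its 2 transcripts and for Mmp14 into transcripts with the symbol and assembled ones without it. The upper part of the Timp1 bar is widest in Lipo-MK1775 replicate 1 (65.1%), and the assembled part makes up 60.1% or more of every Mmp14 bar.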

How the data were processed

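RNA-seq was made from 10 subcutaneous 4T1 tumour libraries. The deposited values are FPKM per transcript, computed by the authors; the submitters' processing notes name FastQC, Trim Galore, HISAT2, StringTie and build GRCm39, without versions. An RNeasy kit and a NEBNext Ultra kit are named per the labels. Transcripts were summed by symbol, leaving out 21051 of 161762 without one, and rescaled to the sum outside the mitochondrial genome (nuclear TPM), since mitochondrial transcripts took up to 64.1% of a library. Genes at 1 or more in at least 2 libraries were tested on log2(nuclear TPM + 1) with limma 3.58.1 (R 4.3.3), moderated, two-sided, with a mean per group, a variance trend and Benjamini-Hochberg adjustment over 15469 genes. The groups are those of the labels, and 4 comparisons with the control, 4 between treated groups and the interaction of form and NLG919 were made.

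The 10 genes, the gene lists and the tests were chosen with earlier results of these data known. The 10 genes are named in every comparison. Of companion lists, up to 4 called genes of smallest unadjusted p per comparison are named (with none called, values of the 2 of highest mean level), and marker lists are given by counts and sums. Of the 10 genes, 3 have their 3 nearest profiles described. The fit was tested on simulated data. Alternatives covered the pseudocount, filter, scaling, transcript summary, replicate block, variance trend, groups fitted, mitochondrial share and each library left out.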

Additional observations from a re-analysis of the deposited data

Results flagged for a closer look

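The change with NLG919 differed between the Lipo form and the free form for 6 of the 10 genes, by the limma interaction test over all 15469 genes, of which 21.0% were called with a median of 1.12. The log2 difference was 3.86 for Mmp1a, 3.38 for Mmp3, 3.38 for Mmp10, 2.83 for Timp3, 2.68 for Mmp13 and 2.24 for Timp2, with adjusted p = 0.0296 to 0.0499. All 6 stood above the median of all genes. The count of 6 was 0 with the mitochondrial share as a covariate, with median-of-ratios scaling, with quantile normalization, with no filter on low values, and when any 1 of 6 libraries was left out. Those 6 are both libraries of Lipo-MK1775+NLG, both of Free-MK1775, replicate 2 of the negative control and replicate 1 of Lipo-MK1775. Both Lipo-MK1775 libraries and Free-MK1775+NLG919 replicate 2 have a high mitochondrial share. The Lipo-MK1775 group and that share therefore cannot be told apart, also not by the covariate fit.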

How the results depend on the processing

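Each of the 10 genes was followed against the control, and elsewhere where its unadjusted p was under 0.05. The 4 genes lower in Lipo-MK1775 kept their sign in every alternative, but not the call. The number called there (4) was 1 with no filter on low values, 2 with median-of-ratios scaling, 1 with quantile normalization, 0 with the mitochondrial share as a covariate and 0 to 6 with a library left out. Against Free-MK1775 the count of 5 was 0 with no filter, 1 with median-of-ratios scaling, quantile normalization, the highest transcript or no variance trend, 0 with the covariate and 0 to 7 with a library left out. For Lipo-MK1775+NLG against Lipo-MK1775 the count of 3 was 0 with no filter, the highest transcript or the covariate, 1 with either scaling or no variance trend, 5 with assembled transcripts added, 6 with only the groups compared fitted and 0 to 6 with a library left out. The interaction count of 6 was 0 with no filter, either scaling or the covariate, 2 with the highest transcript and 0 to 7 with a library left out. The counts of 0 reached 7 for Free-MK1775+NLG919 against the control, 7 for that group against Free-MK1775 and 6 between the 2 groups given NLG919, each without Free-MK1775+NLG919 replicate 1 and from a lowest of 0. With a lone library left in a group, it is assumed to vary like the others, and the counts over all genes rose there as well, as given below. Without the 3 libraries of high mitochondrial share no comparison with Lipo-MK1775 can be made, and the covariate fit cannot separate that group from the share.

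Deviations of same-numbered libraries correlated at -0.204 to 0.065 between groups, so no large shared effect of replicate number was seen. The labels do not say whether the numbers pair libraries, and these values cannot settle it. With a replicate block the counts were 4 for Lipo-MK1775 against the control, 0 for Lipo-MK1775 against Free-MK1775, 0 for NLG919 added to the Lipo form and 2 for the interaction.

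Outside the fit with the mitochondrial share as a covariate, signs that turned were mostly those of values near 0. For Free-MK1775 against the control Mmp13 and Mmp14 became 0.016 and 0.017 with deposited FPKM. They became 0.017 and 0.018 with median-of-ratios scaling, with or without the libraries of high mitochondrial share. Timp2 became -0.064 with quantile normalization and Mmp14 0.16 with assembled transcripts. For Free-MK1775+NLG919 Timp1 became 0.19 with median-of-ratios scaling, and 0.065 (Timp1) and 0.030 (Timp2) with that scaling without the libraries of high mitochondrial share. For Lipo-MK1775 against the control Mmp12 became -0.32 with deposited FPKM and Mmp14 0.018 with the highest transcript. Mmp2, Mmp14 and Timp1 became 0.11, 0.82 and 0.86 with median-of-ratios scaling and 0.059, 0.51 and 0.32 with quantile normalization. With the covariate Mmp13, Mmp2, Mmp14, Timp1 and Timp3 became 0.60, 2.08, 0.76, 0.76 and 0.89 there, Timp3 0.80 against Free-MK1775 and -0.62 in the interaction, and Mmp13 -0.17 for Lipo-MK1775+NLG against Lipo-MK1775. Mmp14 became 0.060 for Lipo-MK1775+NLG against the control with assembled transcripts. The cause was not tested.

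With a library left out, ranges that crossed 0 were, for Free-MK1775 against the control, Mmp1a -0.14 to 1.04, Mmp13 -0.38 to 0.29, Mmp3 -0.063 to 0.72, Mmp10 -0.84 to 0.047, Mmp2 -0.23 to 0.37, Mmp14 -0.16 to 0.074, Timp1 -0.21 to 0.32, Timp2 -0.052 to 0.095 and Timp3 -0.20 to 0.39. They were -0.39 to 0.41 for Mmp14 in Free-MK1775+NLG919, and in Lipo-MK1775 -0.021 to 0.28 (Mmp12), -0.38 to 0.27 (Mmp14) and -0.29 to 0.25 (Timp1). In Lipo-MK1775+NLG they were -0.14 to 0.64 (Mmp3), -0.18 to 0.0030 (Mmp14) and -0.37 to 0.16 (Timp1). Over all genes, limma called 3251 in Lipo-MK1775 against the control, 1 to 7597 over the alternatives, and 3249 in the interaction, 0 to 8826. It called 524 against Free-MK1775 (2 to 6926) and 826 for Lipo-MK1775+NLG against Lipo-MK1775 (2 to 7374). The other counts, of 0 to 3 genes, reached 20 or, without Free-MK1775+NLG919 replicate 1, 5673 to 6418.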
